A study of Ovis aries with 12 samples.

Results

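The insulin-like growth factor (IGF) genes of fetal muscle were represented by every array probe whose gene name starts with IGF and whose signal cleared the scanner's background test (well above background) on 6 or more of the 12 arrays. The name alone picked 19 probes of 10 genes, and 16 probes of 9 genes met the signal requirement, out of 15008 probes on the array and 10734 probes that met the same requirement. The 9 genes are the ligands IGF1 and IGF2, the receptors IGF1R and IGF2R, and the binding proteins IGFBP2, IGFBP3, IGFBP4, IGFBP5 and IGFBP6. The 3 probes of IGFBP1 did not meet the requirement.

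The biceps femoris is a muscle of the hind limb. Its RNA was taken from singleton sheep fetuses near term, and each sample was labelled with Cy3 and read on 1 Agilent 1-colour array. In the cortisol group (6 arrays) the ewe, not the fetus, was infused with cortisol at 1 mg per kg per day from about day 115 of pregnancy to necropsy at 139 to 144 days, and in the control group (6 arrays) the ewe received vehicle over the same time. The labels give 140 days of gestation for all 12 samples and 7 ewes per treatment arm. Their treatment text speaks of the left ventricle of the heart, whereas the title and tissue fields name the biceps femoris. The labels give no breed, fetal sex or fetal cortisol level, and the muscle was sampled whole, so a group difference can reflect fewer cells of a type or less RNA per cell, which cannot be told apart.

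IGF1 and IGF2 are secreted growth factors that both signal through IGF1R, a receptor tyrosine kinase close to the insulin receptor. IGF2R, also the mannose 6-phosphate receptor, takes IGF2 up and delivers it to lysosomes for breakdown. The IGF binding proteins hold the ligands in blood and in tissue, lengthen their life and control how much reaches the receptor. In skeletal muscle the IGFs drive the growth of fibres and the proliferation and differentiation of myoblasts, with IGF2 the prominent ligand before birth, and in sheep the cortisol surge before birth is known to accompany a fall of IGF2 mRNA in the fetal liver.

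The probes are printed 5′ to 3′ as the scanner files give them, each 60 bases long, because what a probe matches decides which transcript its signal stands for. The IGF1 probe starts at base 520 of its transcript and runs over the end of the coding region, with the stop triplet TAG in capitals at base 43 of the probe and 15 bases of it after the stop. The IGF2 probe shown starts at base 583, and a second IGF2 probe starts at base 1147 of the same transcript.
IGF1 A_70_P051091: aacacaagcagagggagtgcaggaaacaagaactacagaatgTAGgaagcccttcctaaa
IGF2 A_70_P016796: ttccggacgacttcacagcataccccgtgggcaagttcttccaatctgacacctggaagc

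The IGF1R probes were designed on different partial transcripts of the receptor, and the IGF2R and IGFBP3 probes shown are those used for these genes below.
IGF1R A_70_P041041: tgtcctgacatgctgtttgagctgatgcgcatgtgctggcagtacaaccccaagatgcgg
IGF1R A_70_P026721: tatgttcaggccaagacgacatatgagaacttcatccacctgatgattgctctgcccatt
IGF2R A_70_P041801: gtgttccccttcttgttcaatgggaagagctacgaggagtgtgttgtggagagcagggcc
IGFBP3 A_70_P028616: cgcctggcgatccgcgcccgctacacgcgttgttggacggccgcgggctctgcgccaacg

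Both IGFBP5 probes are shown with the bases they share in capitals, and they are offset by 1 base with 59 bases in common. The probe pairs of IGF2R, IGFBP2, IGFBP4 and IGFBP6 are built the same way, so the 2 probes of such a pair read the same stretch and are not independent measurements of the gene.
IGFBP5 A_70_P041812: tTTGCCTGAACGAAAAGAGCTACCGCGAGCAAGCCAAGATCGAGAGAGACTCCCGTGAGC
IGFBP5 A_70_P041811: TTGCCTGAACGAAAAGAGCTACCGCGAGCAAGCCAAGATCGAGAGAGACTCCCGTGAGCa

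Each array had 9958 to 11403 probes well above background, and its 75th percentile of intensity was 187 to 447 units. A signal below is the log2 processed intensity of a probe minus its array's 75th percentile, so that 0 is that percentile, and it compares 1 probe between arrays, never 1 gene with another. The arrays fall into 3 sets that share a slide and a slide row, each with 2 cortisol and 2 control arrays. Replicates 1 and 2 of both groups form slide set 1, replicates 3 and 4 slide set 2, and replicates 5 and 6 slide set 3. Of 15 skeletal muscle markers listed, 4 could be matched to a probe by name, including the myogenic factors MYOD1 and MYOG. All 4 were well above background on 6 or more arrays. None of the 7 listed heart markers could be matched, so the left ventricle of the treatment text could not be checked with them. Controls 1 and 4 carried high signals of the liver genes ALB (2.57 and 2.33) and AHSG (5.31 and 6.92), against at most -1.21 for ALB and 2.10 for AHSG on the other 10 arrays.

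No IGF gene passed the test of cortisol against control across all probes. Of the 16 IGF probes, 0 passed an adjusted p of 0.05 in limma, where 0 of 10734 tested probes (0%) passed and the smallest adjusted p was 0.693. At an unadjusted p of 0.05, 0 of the 16 IGF probes and 732 of all tested probes (6.82%) passed in limma, of which 230 were higher (2.14%) and 502 lower (4.68%) in the cortisol group. In 10 IGF probes the cortisol mean was the higher and in 6 it was the lower, with a median log2 fold change of 0.04 against -0.02 over all tested probes. For 0 of the 16 IGF probes did all cortisol arrays lie on one side of all control arrays, which 44 tested probes (0.41%) did. The widest differences in the mean were in IGF1R and IGFBP5, in opposite directions.

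**Figure D1:**
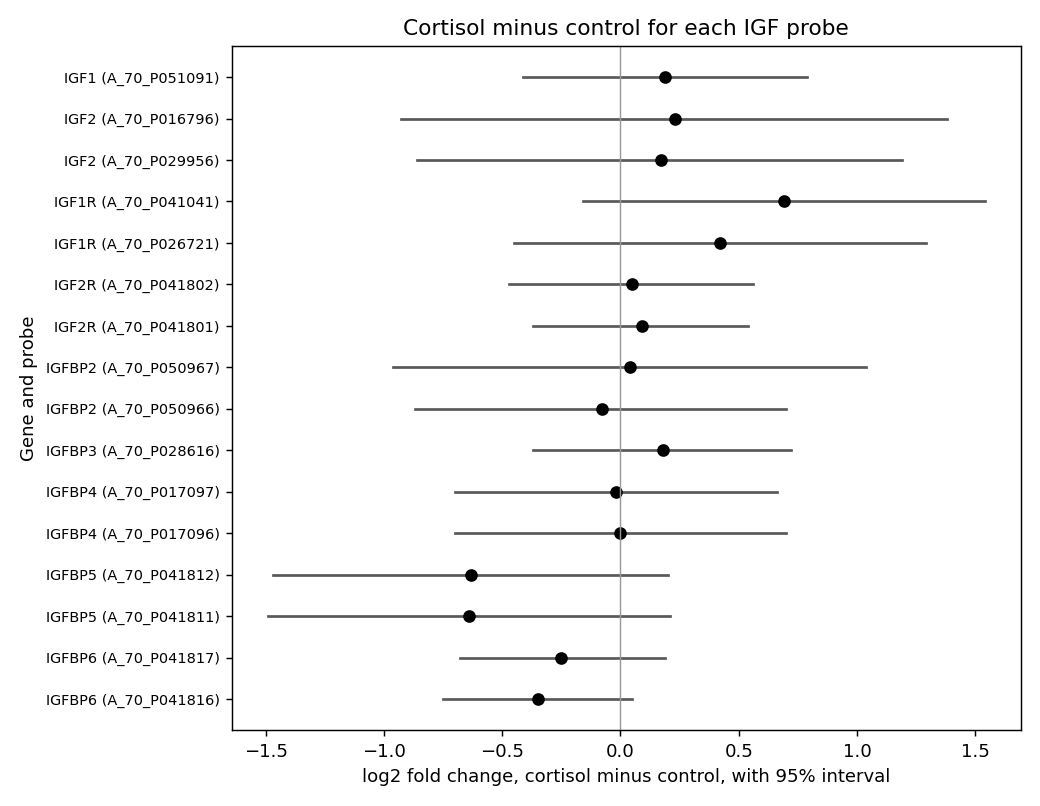
Log2 fold change of each of the 16 IGF probes, cortisol minus control, with its 95% interval from limma (6 arrays per group, x axis in log2 units, 1 line per probe). Every interval spans 0, from IGF1R at the higher end with 0.69 to IGFBP5 at the lower end with -0.64.

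No group difference passed the test, and several IGF genes varied widely from array to array. The median range of an IGF probe over the 12 arrays was 2.24 log2 units, against 1.24 over all tested probes. Overlapping probe pairs count as 2 probes in this median. The ranges of IGF2R (1.43 and 1.29) and IGFBP6 (1.38 and 1.28) were close to that of all tested probes. In 13 of the 16 IGF probes the SD was larger in the cortisol group, as it was in 70.7% of all tested probes, whose median SD was 0.39 in the cortisol group and 0.29 in the control group.

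**Figure D2:**
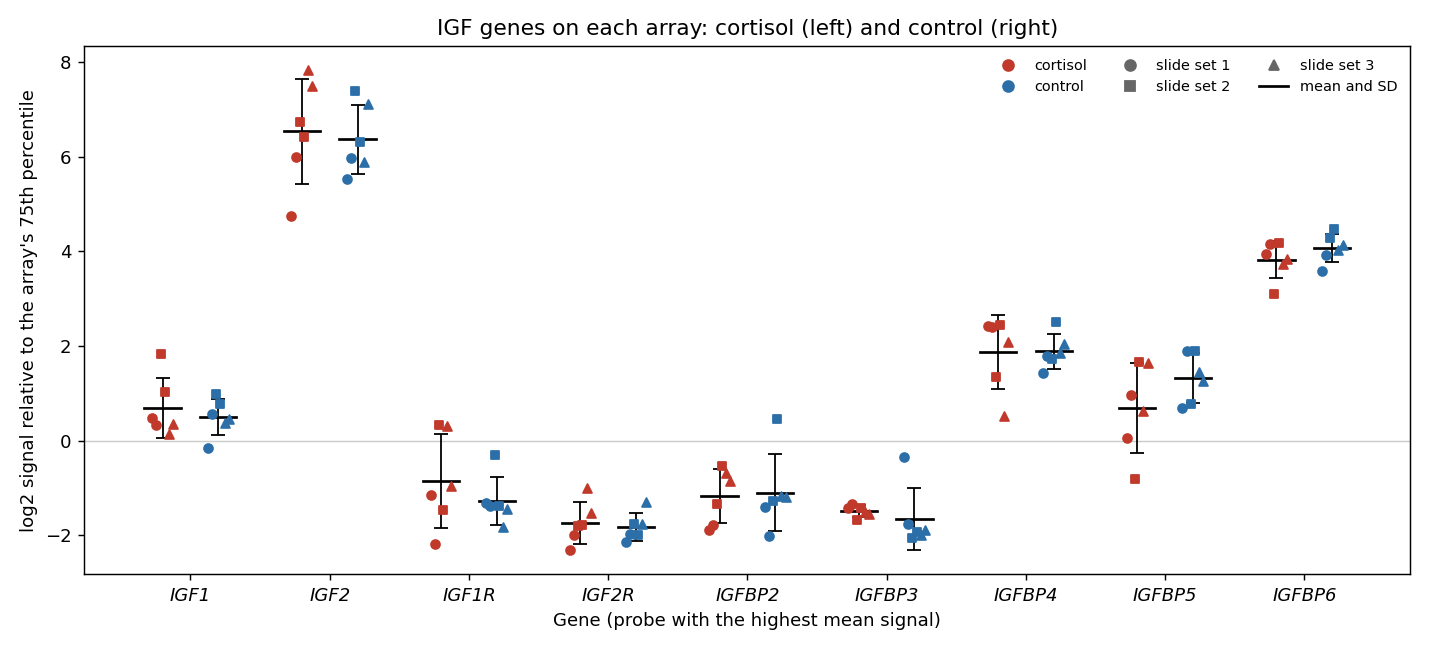
Signal of each IGF gene on every array, cortisol left and control right for each gene (y axis in log2 units relative to the array's 75th percentile, point shape for the slide set, bar for the mean and SD of 6 arrays, probe with the highest mean signal). The groups overlap in all 9 genes, IGF2 spreads over 3.08 log2 units, and the heights of different genes are not comparable because each is a different probe.

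The ligands had nearly equal group means. IGF1, the ligand that growth hormone induces after birth, had signals of 0.48, 0.33, 1.84, 1.02, 0.15 and 0.35 on cortisol arrays 1 to 6, against -0.15, 0.57, 0.98, 0.78, 0.38 and 0.45 on control arrays 1 to 6. Cortisol array 3 stood highest and control array 1 lowest, and the groups overlapped. The mean was 0.69 ± 0.63 in the cortisol group and 0.50 ± 0.39 in the control group (SD, n = 6 each), a difference of 0.19 on the log2 scale with a 95% interval of -0.41 to 0.79 and an adjusted p of 0.906 in limma. Without cortisol array 3 the fold change was -0.04, so the sign of the IGF1 difference rested on 1 array. The 4 highest IGF1 signals came from the 4 arrays of slide set 2, whose mean was 1.15 against 0.31 in slide set 1 and 0.33 in slide set 3.

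IGF2, the ligand that prevails before birth, varied more between arrays than most transcripts measured. The probe at base 1147 had signals of 4.75, 6.00, 6.72, 6.42, 7.83 and 7.49 on cortisol arrays 1 to 6, against 5.53, 5.97, 7.39, 6.31, 5.89 and 7.11 on control arrays 1 to 6. The lowest and the highest of the 12 were both cortisol arrays, and the control values lay between them. The range of 3.08 log2 units is an 8.46-fold span between arrays and is wider than that of 95.1% of tested probes. The mean was 6.53 ± 1.11 in the cortisol group and 6.37 ± 0.73 in the control group, a fold change of 1.12 (95% interval 0.552 to 2.28) with an adjusted p of 0.956 in limma.

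The second IGF2 probe, which starts 564 bases upstream and shares no base with it, ordered the arrays much as the first did. Its signals were 2.22, 3.57, 4.16, 3.89, 5.63 and 5.39 on cortisol arrays 1 to 6, against 2.95, 3.50, 5.12, 4.06, 3.25 and 4.63 on control arrays 1 to 6. Over the 12 arrays the 2 probes had a Pearson correlation of 0.992, and the SD of their difference was 0.175 log2 units. The spread of IGF2 between arrays was therefore seen by 2 separate stretches of the transcript, and the log2 fold change of the upstream probe was 0.23 (95% interval -0.93 to 1.38).

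The direction of the IGF2 difference depended on which arrays were compared. Within slide sets 1, 2 and 3 it was -0.38, -0.28 and 1.16 at the downstream probe and -0.33, -0.57 and 1.57 at the upstream probe. Without cortisol array 5 it was -0.09 at the downstream probe, and without cortisol array 1 it was 0.52. Without control arrays 1 and 4 together it was -0.06 at the downstream probe and 0.02 at the upstream probe.

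**Figure D3:**
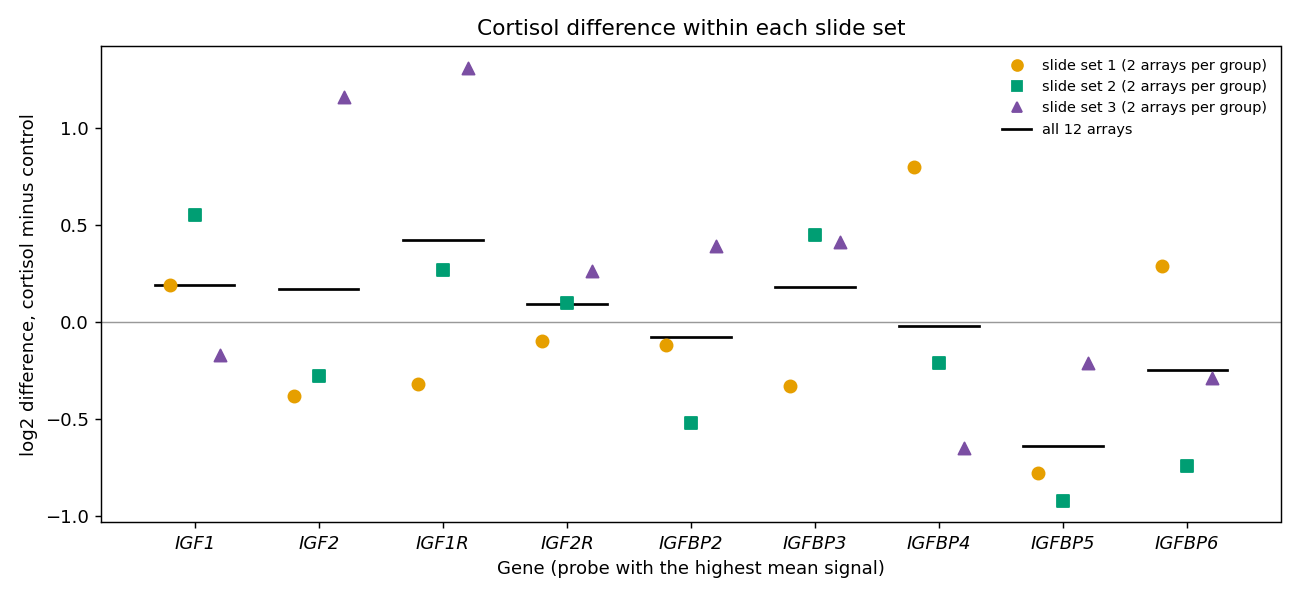
Difference between cortisol and control means within each slide set (2 arrays per group, coloured points) and over all 12 arrays (black lines), in log2 units, for the brightest probe of each IGF gene. IGFBP5 alone is below 0 in all 3 sets, at -0.78, -0.92 and -0.21, while IGF2 and IGF1R stand highest in slide set 3, at 1.16 and 1.31.

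Of the receptors, IGF1R had the largest difference in the mean. At probe A_70_P041041, IGF1R signals were -1.60, -2.69, -0.44, -2.21, -0.29 and -1.68 on cortisol arrays 1 to 6, against -2.05, -2.09, -1.40, -2.89, -2.62 and -2.00 on control arrays 1 to 6. Cortisol arrays 3 and 5 lay above every control, and the other 4 cortisol arrays lay within the control range. The mean was -1.49 ± 0.95 in the cortisol group and -2.17 ± 0.52 in the control group, a difference of 0.69 log2 units (95% interval -0.16 to 1.54) with an unadjusted p of 0.103 and an adjusted p of 0.764 in limma. The difference was 0.45 without cortisol array 5, and 0.93 without cortisol array 2 (unadjusted p 0.0254, adjusted p 0.472 in limma). In the latter setting 1057 of the 10734 tested probes had an unadjusted p under 0.05 in limma, against 732 with all arrays. Cortisol array 2 had the lowest cortisol signal at this probe, so the p-values without it depend on a choice made from the values they test. With normexp background correction the IGF1R difference was 0.35, with an unadjusted p of 0.18 in limma.

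At the other IGF1R probe, A_70_P026721, signals were -1.15, -2.19, 0.32, -1.46, 0.30 and -0.95 on cortisol arrays 1 to 6, against -1.32, -1.37, -0.31, -1.38, -1.83 and -1.44 on control arrays 1 to 6. Cortisol arrays 3 and 5 were again the highest of the 12. The log2 fold change was 0.42 (95% interval -0.45 to 1.29) with an adjusted p of 0.843 in limma, and the 2 probes had a Pearson correlation of 0.936 over the arrays. Without cortisol array 2 the log2 fold change at this probe was 0.69, with an unadjusted p of 0.082 and an adjusted p of 0.56 in limma. A probe that the array annotation describes as the IGF-I receptor, but whose name does not start with IGF, had means of -3.45 ± 0.98 in the cortisol group and -3.66 ± 0.45 in the control group. Its log2 fold change was 0.21 (95% interval -0.63 to 1.05), and it correlated at 0.91 and 0.89 with the 2 IGF1R probes. Within slide sets 1, 2 and 3 the difference was -0.08, 0.82 and 1.32 at the first IGF1R probe.

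IGF2R, the clearance receptor of IGF2, had almost the same mean in both groups. Probe A_70_P041801 ranged from -2.30 to -1.01 with a median of -1.79 in the cortisol group, and from -2.14 to -1.30 with a median of -1.87 in the control group. The cortisol range enclosed the control range. The log2 fold change was 0.09 (95% interval -0.37 to 0.54) with an adjusted p of 0.948 in limma, and at the overlapping probe it was 0.05 (95% interval -0.47 to 0.56).

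Among the binding proteins, IGFBP5 had the largest difference, with the lower mean in the cortisol group. IGFBP5 is secreted in quantity by differentiating muscle cells and binds the extracellular matrix. Its signals at probe A_70_P041811 were 0.06, 0.96, -0.81, 1.66, 0.62 and 1.65 on cortisol arrays 1 to 6, against 0.68, 1.90, 0.78, 1.89, 1.44 and 1.25 on control arrays 1 to 6. Cortisol arrays 1, 3 and 5 lay below every control, and the other 3 lay within the control range. The mean was 0.69 ± 0.96 in the cortisol group and 1.32 ± 0.53 in the control group, a fold of 0.643 (95% interval 0.357 to 1.16) with an unadjusted p of 0.131 and an adjusted p of 0.772 in limma. At the overlapping probe the log2 difference was -0.63 (95% interval -1.47 to 0.20), against -0.64 here. Only cortisol arrays 1 and 3 lay below every control at the overlapping probe, where cortisol array 5 was at 0.70 and control array 1 at 0.67.

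The IGFBP5 difference was below 0 within slide sets 1, 2 and 3, at -0.78, -0.92 and -0.21. It ranged from -0.83 without cortisol array 4 to -0.34 without cortisol array 3. The 2 overlapping IGFBP5 probes were the only 2 of the 16 IGF probes whose difference had the same sign under all 27 alternatives. Some of these, such as the blocks, the filters and the variance model, cannot move a fold change, so its sign was fixed there in advance. The share of all tested probes that kept their sign was not computed. None of the 27 alternatives brought an IGF probe past the adjusted threshold.

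IGFBP6, which binds IGF2 in preference to IGF1, also had the lower mean in the cortisol group. At probe A_70_P041816 its signals were 3.90, 4.03, 3.14, 4.09, 3.59 and 3.78 on cortisol arrays 1 to 6, against 3.64, 4.01, 4.31, 4.42, 4.06 and 4.21 on control arrays 1 to 6. Cortisol arrays 3 and 5 lay below every control, and control array 1 was the lowest of the controls. The mean was 3.76 ± 0.35 in the cortisol group and 4.11 ± 0.28 in the control group, a difference of -0.35 log2 units (95% interval -0.75 to 0.05). Its unadjusted p of 0.0802 was the smallest of the 16 IGF probes and its adjusted p was 0.757 in limma. At the overlapping probe A_70_P041817, signals were 3.94, 4.16, 3.09, 4.17, 3.74 and 3.84 on cortisol arrays 1 to 6, against 3.58, 3.93, 4.27, 4.47, 4.03 and 4.14 on control arrays 1 to 6, with a difference of -0.25 log2 units (95% interval -0.68 to 0.19). In slide set 1 the difference had the other sign, at 0.14 and 0.29, and without cortisol array 3 it was -0.23 and -0.10.

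Muscle marker signals on the same arrays are given beside these values. The summed linear signal of the 4 matched muscle markers is mostly that of the oxygen-binding gene MB. It was 10.1 to 66.1 times the 75th percentile in the cortisol group and 72.8 to 133 times in the control group. These ranges do not overlap, as was the case for 0.41% of single tested probes. MYOD1 did overlap, at -0.35 to 2.59 in the cortisol group and 1.63 to 2.27 in the control group. So did MYOG, at -0.48 to 1.02 against 0.41 to 0.97, and MYF5, at -5.09 to -4.28 against -4.40 to -3.40. MYF5 was dim, as the lowest signal called well above background on an array was between -5.88 and -4.73. MB was at 2.85 on cortisol array 3, the array with the lowest IGFBP5 and IGFBP6 signals, against 6.06 to 7.00 on the control arrays. The summed signal of the 5 matched fibroblast and matrix markers was 97.4 to 215 in the cortisol group and 98.3 to 174 in the control group, and that of 3 leukocyte markers was 0.514 to 0.863 in the cortisol group and 0.398 to 0.581 in the control group. The part of these differences in the IGFBP5 and IGFBP6 values was not tested.

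IGFBP4, an inhibitor that the protease PAPPA cleaves, had nearly the same mean in both groups. Probe A_70_P017097 ranged from 0.53 to 2.44 with a median of 2.23 in the cortisol group, and from 1.42 to 2.50 with a median of 1.82 in the control group. Cortisol arrays 3 and 5, at 1.35 and 0.53, lay below every control, and the other 4 cortisol arrays had signals of 2.08 to 2.44. The log2 fold change was -0.02 (95% interval -0.70 to 0.66) with an adjusted p of 0.993 in limma, and within slide sets 1, 2 and 3 it was 0.80, -0.21 and -0.65. At the overlapping probe only cortisol array 5, at 0.44, lay below every control. Cortisol array 3 was at 1.30 there and control array 1 at 1.18.

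IGFBP3, the main carrier of the IGFs in blood after birth, was set apart by 1 control. Its signals were -1.43, -1.33, -1.68, -1.42, -1.50 and -1.55 on cortisol arrays 1 to 6, against -0.34, -1.76, -2.06, -1.93, -1.99 and -1.88 on control arrays 1 to 6. Control array 1 was the highest of the 12, and the other 5 controls lay below every cortisol array. The mean was -1.48 ± 0.12 in the cortisol group and -1.66 ± 0.65 in the control group, a difference of 0.18 log2 units (95% interval -0.37 to 0.72) with an adjusted p of 0.903 in limma. Without control array 1 it was 0.44, with an unadjusted p of 0.00442 and an adjusted p of 0.825 in limma. Without control arrays 1 and 4 it was also 0.44, with an unadjusted p of 0.0105 and an adjusted p of 0.929 in limma. In these settings 619 and 508 of the 10734 tested probes had an unadjusted p under 0.05 in limma. Control array 1 stands apart at this same probe, so these p-values depend on a choice made from the values they test. The IGFBP3 probe is 75% G and C, a share above that of 99.9% of tested probes, whose median is 45%. With normexp background correction in place of the processed signal its log2 fold change was 0.03.

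IGFBP2, a binding protein of fetal plasma, was highest in control array 4. Probe A_70_P050966 ranged from -1.88 to -0.54 with a median of -1.09 in the cortisol group, and from -2.02 to 0.45 with a median of -1.22 in the control group. The control group held both the lowest and the highest value. The log2 fold change was -0.08 (95% interval -0.87 to 0.70) with an adjusted p of 0.97 in limma, and it was 0.23 without control array 4. The overlapping probe gave 0.04 with all arrays and 0.46 without control array 4.

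IGFBP1, a binding protein made chiefly by liver, was well above background on 1 control array, control array 4, and on 0 cortisol arrays. Its 3 probes stood at -3.86, -3.98 and -4.46 on control array 4, and the first of them was between -7.83 and -5.98 on the other 11 arrays. No fold is given, because 11 of 12 arrays had only a bound. Control array 4 was thus the array with the highest IGFBP1 and IGFBP2 and the highest AHSG, and control array 1 that with the highest IGFBP3 and the highest ALB. The match was only partial. On control array 4 IGFBP3 was at -1.93, below every cortisol array. On control array 1 IGFBP2 was at -1.40 (probe A_70_P050966), within the cortisol range, and IGFBP1 was not well above background. The summed signal of 5 matched liver markers was 0.677 to 3.08 in the cortisol group and 0.544 to 148 in the control group, with 57.4 on control array 1 and 148 on control array 4. The part of liver transcripts in the IGFBP values was not tested. In the sheep gene table IGFBP1 and IGFBP3 are neighbours with 0 genes between them, as are IGFBP2 and IGFBP5.

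**Figure D4:**
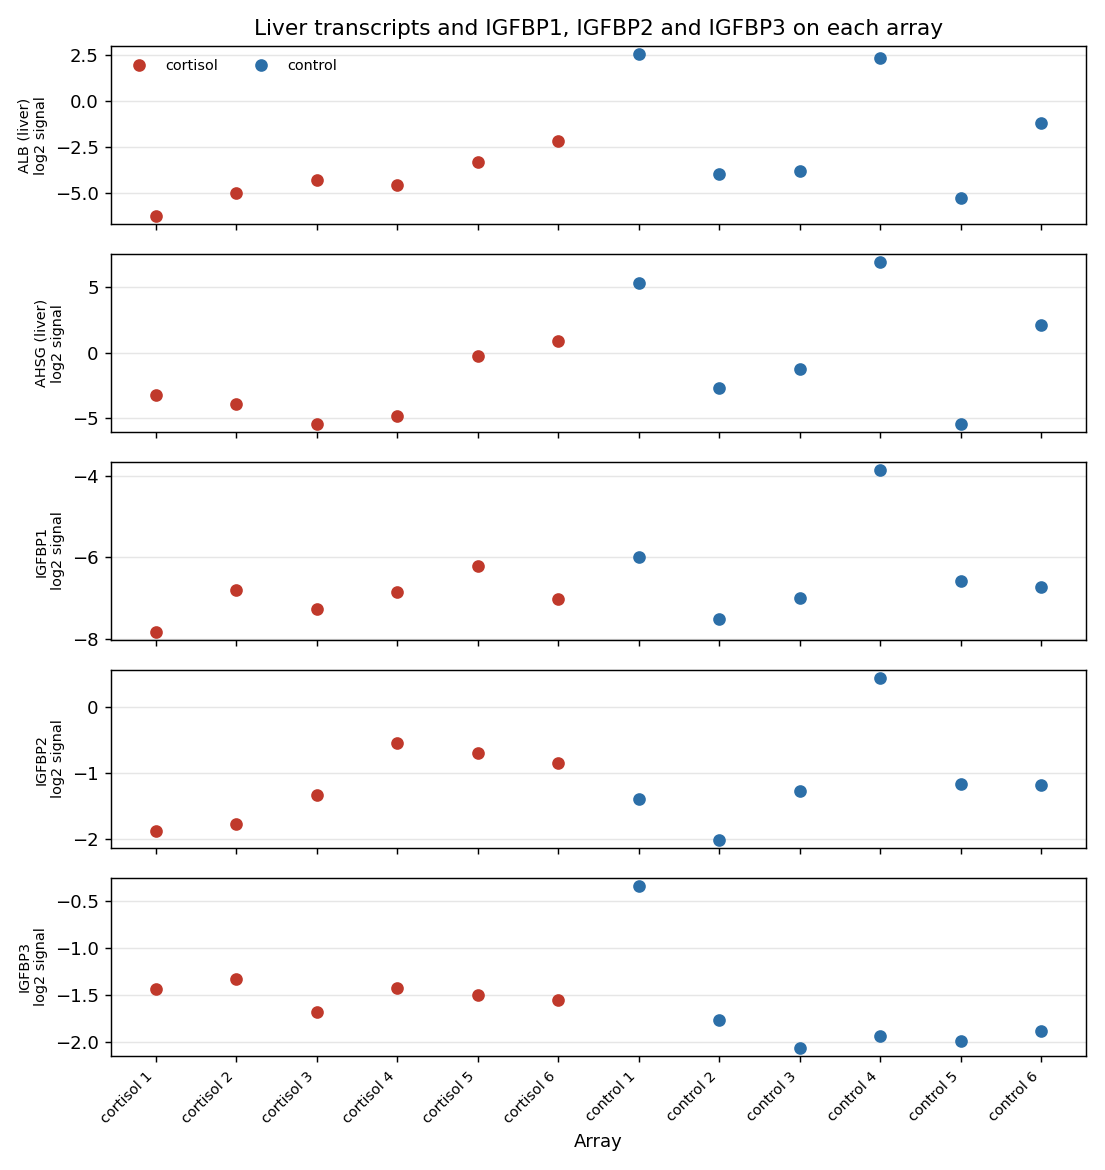
Signals of the liver genes ALB and AHSG and of IGFBP1, IGFBP2 and IGFBP3 on every array (y axes in log2 units relative to the array's 75th percentile, 1 point per array, each panel with its own scale). Control array 4 is highest for IGFBP1 and IGFBP2 and control array 1 for IGFBP3, and the same 2 arrays are highest for ALB and AHSG. IGFBP3 on control array 4 (-1.93) and IGFBP2 on control array 1 (-1.40) lie within the range of the other arrays.

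The arrays of a slide set resembled each other in several IGF genes. With treatment in the model, limma's test of the 3 slide sets gave an unadjusted p under 0.05 for 7 of the 16 IGF probes, against 1858 of all tested probes (17.3%). At an adjusted p of 0.05, 0 of the 16 passed, against 6 of all tested probes (0.0559%). The 7 were the IGF1 probe and both probes of IGF2, IGF2R and IGFBP2, and the pairs share their transcript, so they stand for 4 genes. Both groups are equally represented in every slide set, and with slide set as a block 0 IGF probes passed.

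Across the 12 arrays IGF2 and its clearance receptor IGF2R varied together. Of 36 pairs among the 9 genes, 1 passed an adjusted permutation p of 0.05 for Pearson's r and 0 for Spearman's rho. For IGF2 and IGF2R, r was 0.86 with a permutation p of 0.00028 (adjusted 0.0101), and rho was 0.79 with a permutation p of 0.00308 (adjusted 0.111). Arrays with a low IGF2 signal, such as cortisol array 1, had a low IGF2R signal, and those with a high one, such as cortisol array 5, a high one. Without these 2 arrays, the farthest from the median of IGF2, r was 0.75. It was 0.94 within the cortisol group and 0.69 within the control group.

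The slide sets share part of this relation, and r was 0.82 for deviations from the slide-set means. Each slide set holds 4 arrays, too few for a value of its own. IGF2R also ran against the brightness of the array, with an r of -0.56 to the log2 75th percentile of intensity (adjusted permutation p 0.787) and a rho of -0.66 (adjusted permutation p 0.243), where 0 of 18 relations of IGF genes to array measures passed the adjusted threshold. For IGF2 the r to the same brightness measure was -0.38 (adjusted permutation p 0.964) and the rho -0.34 (adjusted permutation p 0.784). The part of array brightness in the IGF2 and IGF2R relation was not tested.

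**Figure D5:**
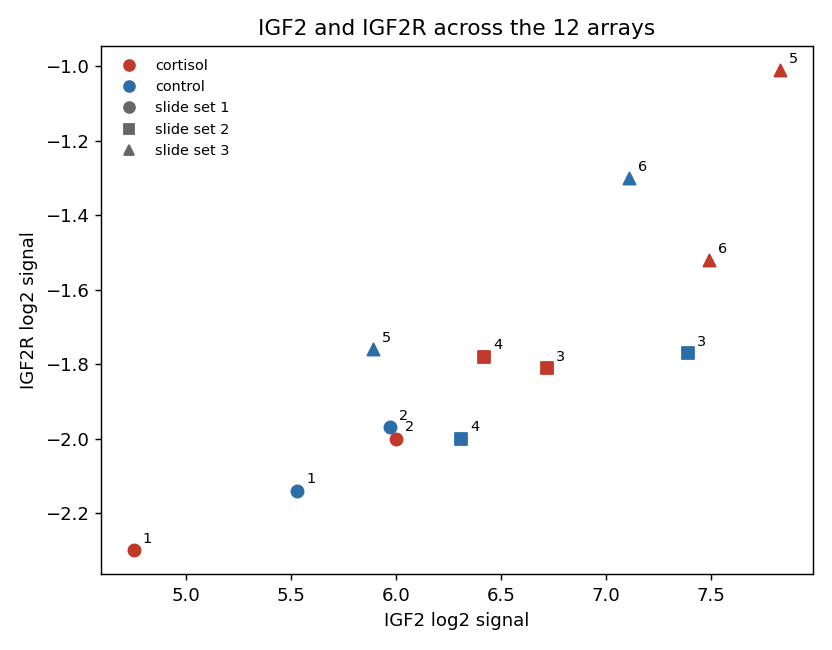
IGF2 signal (x axis) against IGF2R signal (y axis) on the 12 arrays, both in log2 units relative to the array's 75th percentile, with the replicate number beside each point, colour for the group and shape for the slide set. The points run from cortisol array 1 at 4.75 and -2.30 to cortisol array 5 at 7.83 and -1.01.

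The other pairs did not pass. IGF1R and IGFBP4 had an r of -0.72 (adjusted permutation p 0.133), which was -0.31 without cortisol arrays 3 and 5. IGFBP5 and IGFBP6 had an r of 0.71 (adjusted permutation p 0.133), which was 0.41 without cortisol arrays 1 and 3. The ligands IGF1 and IGF2 had an r of 0.16 (adjusted permutation p 0.843).

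Among 775 tested probes named for another gene, those most like IGF1 over the 12 arrays were COL6A1, a collagen VI chain of the matrix, with a Pearson r of 0.84, CTSS, a lysosomal protease, with 0.79, and PTCH1, the hedgehog receptor, with 0.78. Without cortisol array 3 and control array 1 these were 0.78, 0.32 and 0.65. Those most like IGF2 were the tissue kallikrein KLK1 with 0.91, the hypoxia-inducible factor HIF3A with 0.88, and PTGS1, a prostaglandin synthase, with 0.85, and without cortisol arrays 1 and 5 they had 0.86, 0.76 and 0.69. KLK1 was well above background on 10 of the arrays. Those most like IGFBP5 were NPPC, the C-type natriuretic peptide, with 0.87, the histone chaperone ASF1A with 0.85, and the Wnt receptor FZD2 with 0.83, of which NPPC was at 0.52 without the 2 arrays farthest from the median of IGFBP5. These are the highest of many correlations over few arrays that share slides and are given as a description.

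Of 57 genes listed for IGF and insulin signalling, growth hormone action and IGFBP proteolysis, 11 could be matched to a probe and 9 were tested. In limma 0 of these 9 passed an adjusted p of 0.05, 6 had the higher mean and 3 the lower mean in the cortisol group, and the median log2 fold change was 0.09, against -0.02 over all tested probes. Growth hormone and STAT5A were not well above background on enough arrays. The proteases MMP2, CTSB and CTSD differed in the mean by log2 values of 0.33 (95% interval -0.11 to 0.76), 0.26 (-0.11 to 0.63) and 0.23 (-0.11 to 0.56). MMP2, a matrix metalloprotease, averaged -1.59 ± 0.37 in the cortisol group and -1.92 ± 0.35 in the control group.

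The insulin-responsive glucose transporter SLC2A4 was the only 1 of the 9 with an unadjusted p under 0.05, at 0.0177, and its adjusted p was 0.693 in limma. Over all tested probes, 4.68% were lower and 2.14% higher in the cortisol group at an unadjusted p under 0.05, 6.82% in all. SLC2A4 signals were 3.64, 2.98, 3.46, 2.94, 2.10 and 3.44 on cortisol arrays 1 to 6, against 4.05, 3.63, 4.75, 3.44, 3.59 and 3.63 on control arrays 1 to 6. Cortisol arrays 2, 4 and 5 lay below every control. RPS6, a ribosomal protein downstream of mTOR, had a log2 fold change of 0.19, AKT1, the kinase downstream of IGF1R, of -0.10, and the growth hormone receptor GHR of -0.08, each with an interval that spans 0.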

How the data were processed

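Fetal sheep biceps femoris RNA was measured on 12 Agilent arrays, 1 per sample. The submitters' processing notes name Agilent Feature Extraction 10.1.1.1 as the reader of the scans. The deposited scanner files hold spot intensity and a processed intensity that, per the file headers, was detrended after background subtraction and was not scaled across arrays, and other values that are 0 or 1 flags. The deposited series table holds log2 values ordered within each array as median signal minus background (Spearman correlation of 1 on 12 arrays). How they were normalized is not given here.

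Spots of a probe were averaged without outlier-flagged spots. From the log2 processed intensity of a probe, its array's 75th percentile (control spots aside) was subtracted. The test was limma 3.58.1 (R 4.3.3, two-sided, lmFit then eBayes, treatment only) on 10734 probes well above background on 6 or more arrays, after 4274 were removed. P-values were adjusted by Benjamini-Hochberg over all 10734, with a threshold of 0.05 and intervals at 95%. The standard error of a log2 difference had a median of 0.21, which the number of arrays limits. Correlations used 100000 permutations, two-sided, in Python 3.11.15 with scipy 1.17.1. Slide sets come from position numbers of the scanner files. The limma step was tested on simulated data.

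Genes were named through the sheep gene table of assembly ARS-UI_Ramb_v3.0. A RefSeq accession named 713 probes, a symbol 506, a synonym 26 and a hand-made table from the array descriptions 10, and 13753 have no name here. The labels do not say that every array is a separate ewe, and p-values measure the spread between arrays, which may be technical.

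All IGF genes are named, with array values for IGF1, IGF2, IGFBP5 and the 4 other IGF probes with the smallest unadjusted p. Array values of IGFBP3 and SLC2A4 were added after they were seen. From the signalling list up to 4 genes per direction with the smallest unadjusted p are named, and for IGF1, IGF2 and IGFBP5 the 3 most alike. The members and lists were chosen with earlier results of these data known. Alternatives covered background correction, scaling, the deposited log2 values, filters, blocks, each slide set, the variance model, array weights and each array left out. Replicate numbers are shared by the groups but were not taken as pairs.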

Additional observations from a re-analysis of the deposited data

Results flagged for a closer look

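Of 52 groups of 6 arrays examined, 5 held 1 array farther from the others than Dixon's 95% limit allows, and chance flags about 1 in 20 groups. IGF1R at probe A_70_P026721 was at -0.31 on control array 3, against -1.83 to -1.32 on the other controls. IGFBP2 at probe A_70_P050966 was at 0.45 on control array 4, against -2.02 to -1.16. IGFBP3 was at -0.34 on control array 1, against -2.06 to -1.76. AKT1 was at 1.28 on control array 6, against 0.48 to 0.62. GHR was at 0.67 on cortisol array 2, against 1.64 to 2.10 on the other cortisol arrays. The IGFBP2 and IGFBP3 values came from the 2 control arrays with the highest ALB and AHSG signals, each from a different one. IGFBP2 on control array 1 was at -1.40 and IGFBP3 on control array 4 at -1.93, within the range of the other controls.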

How the results depend on the processing

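Under 27 alternatives, 12 of which leave out 1 array each, 0 IGF probes passed the adjusted threshold in limma, and the lowest adjusted p of an IGF probe was 0.472. The adjusted count over all probes stayed at 0 with each array left out and was 1 with slide set 1 alone. The unadjusted count of 732 was 298 with slide set 2 alone and ran from 494 (without cortisol array 5) to 1080 (without cortisol array 4). The replicate numbers correlated at -0.11 to 0.25 between same-numbered arrays, so they were not taken as pairs, and 3 of 6 cortisol arrays correlated best with their own number. With the replicate block 0 probes passed adjusted and 843 unadjusted. The block cannot move a fold change in this balanced design (0.19 for IGF1), only its p, and the IGFBP5 probes had unadjusted p of 0.0278 and 0.0253 and an adjusted p of 0.633 in limma with it.

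In 15 of 16 IGF probes the fold change moved by over 1.5 times or changed sign with 1 array left out, and at the remaining IGFBP4 probe, at 0.00, it ran from -0.12 to 0.27. For a difference near 0, such as 0.05 at an IGF2R probe or -0.02 at an IGFBP4 probe, a small shift is enough for this. The same share over all tested probes was not computed, so whether the count is particular to the IGF probes is not known. The fold changes listed next for single settings are only those whose sign was opposite to that of the main fit. Where 1 of 2 probes of a gene is given, the other kept its sign. For the IGFBP4 probe at 0.00 no change of sign was counted. Slide set 1 alone gave -0.33 and -0.38 for IGF2, -0.08 and -0.32 for IGF1R, -0.18 and -0.10 for IGF2R, -0.33 for IGFBP3, 0.80 for IGFBP4, 0.29 and 0.14 for IGFBP6 and 0.20 for AKT1. Slide set 2 alone gave -0.57 and -0.28 for IGF2, -0.07 for IGF2R (0.10 at its other probe), -0.60 for IGFBP2 (-0.52 at its other probe) and 0.21 for GHR. Slide set 3 alone gave -0.17 for IGF1, 0.39 for IGFBP2 (0.60 at its other probe) and -0.03 for CTSB. Normexp gave -0.02 for IGF2R, -0.08 for IGFBP2 and 0.01 for IGFBP4, and array weights 0.11 for IGFBP2 and 0.05 for IGFBP4. Without control arrays 1 and 4, chosen after seeing the data, IGF2 had -0.06 at the downstream probe, against 0.02 at the upstream probe. In that setting IGF2R had -0.06 and -0.04, IGFBP2 0.23 and IGFBP4 0.02. With 1 array left out the ranges were -0.04 to 0.30 for IGF1, -0.07 to 0.61 and -0.09 to 0.52 for IGF2, -0.14 to 0.15 and -0.06 to 0.20 for IGF2R, -0.21 to 0.46 and -0.27 to 0.23 for IGFBP2, -0.13 to 0.25 for IGFBP4, -0.22 to 0.06 for AKT1 and -0.22 to 0.11 for GHR. Leaving out the 2 arrays farthest from the median of the first gene gave r of -0.07 for IGF1 and IGF2, 0.28 for IGF1 and IGFBP5 and -0.08 for IGF2 and IGFBP5, and deviations from slide-set means -0.06 for IGF1 and IGF2 and -0.03 for IGF2 and IGFBP5. The cause of these changes was not tested.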
